A study of Mus musculus with 2 samples.

Results

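The peaks described here are those of Dnmt1 DamID in mouse embryos that the deposited list assigns to a gene named Zfp followed by a digit. One gene with such a name is not analysed here. The rule took 97 of the 8226 listed peaks, and they belong to 56 genes. The genes were chosen by their name and selected on the presence of a listed peak, which has a Dnmt1-Dam height of at least 7. The presence and the heights of these peaks are therefore given as a description and were not tested.

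The profiled group was embryos injected with a Dnmt1-V5-Dam fusion, which carries the maintenance DNA methyltransferase Dnmt1, a V5 tag and the bacterial adenine methyltransferase Dam. The group it is set against was embryos injected with Dam alone, which marks accessible DNA. Both groups were pools of 50 embryos collected at the 4- to 8-cell stage and each gave 1 library. The mothers were hormone-treated females of 5 weeks, of the strain BCF1 (C57BL/6 x CBA/CA). The strain and age of the males are not given in the labels. Dnmt1-Dam came from injection and not from the embryo's own gene, and with 1 library per group no difference has a replicate check. The material is genomic DNA, so the stage could not be checked against marker transcripts. No source used here states how many reads each library had. Depth is therefore unknown, and peak heights are the only measure of coverage.

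Zinc finger proteins bind DNA or RNA through small loops held by a zinc ion. In mammals the largest group joins an array of such fingers to a KRAB box, which recruits the corepressor Trim28 and, through it, the histone methyltransferase Setdb1. Many KRAB zinc finger proteins silence retroelements in the early embryo, and some protect the DNA methylation of imprinted genes. Their genes often lie side by side in clusters made by gene duplication. Other genes named Zfp encode developmental transcription factors with no KRAB box, mRNA decay factors of the CCCH type, or proteins whose zinc-binding part is a RING of a ubiquitin ligase.

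The set is wider than its name. All 56 genes were matched to RefSeq's genes of GRCm38.p6, called the gene table from here on, and 10 carry another symbol there. Of these, 6 are no longer named Zfp. Zfp294 (now Ltn1), Zfp650 (Ubr3), Zfp364 (Rnf115) and Zfp179 (Rnf112) are ubiquitin ligase genes. Zfp238 is now Zbtb18, a transcriptional repressor that acts in neuronal development, and Zfp187 is now Zscan26. The gene table in turn names 15 further peaks as Zfp, of which 6 have no gene name in the deposited list and 9 have another name there.

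Dam methylates adenine only within GATC, so a stretch with no GATC cannot be marked. To show the start sites that lie closest to a promoter peak, the 250 bases before the start of the 3 genes with a peak in a promoter class are given 5′ to 3′ on the gene's strand, from RefSeq promoter sequences of GRCm38.p6, with each GATC in capitals. No deposited peak was placed on them, since the peaks are in mm9 coordinates. The window of Zfp11 lies at chr5:129670089-129670338, minus strand, that of Zfp771 at chr7:127244276-127244525, plus strand, and that of Zfp689 at chr7:127449159-127449408, minus strand.
Zfp11: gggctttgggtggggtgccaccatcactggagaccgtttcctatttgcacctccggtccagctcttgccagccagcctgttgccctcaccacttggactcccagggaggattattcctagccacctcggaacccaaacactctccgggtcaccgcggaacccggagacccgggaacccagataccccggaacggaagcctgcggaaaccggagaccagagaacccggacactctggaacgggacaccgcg
Zfp771: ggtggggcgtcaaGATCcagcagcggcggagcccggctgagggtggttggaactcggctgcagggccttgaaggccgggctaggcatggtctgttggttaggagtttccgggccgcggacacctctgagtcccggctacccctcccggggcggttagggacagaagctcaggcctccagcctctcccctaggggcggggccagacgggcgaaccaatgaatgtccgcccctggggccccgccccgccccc
Zfp689: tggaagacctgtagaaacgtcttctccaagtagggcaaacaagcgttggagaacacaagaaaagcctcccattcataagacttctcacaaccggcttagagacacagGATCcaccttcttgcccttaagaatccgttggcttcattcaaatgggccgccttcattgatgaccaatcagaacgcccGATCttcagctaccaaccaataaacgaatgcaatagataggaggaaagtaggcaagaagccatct
The window of Zfp11 holds 0 GATC, that of Zfp771 holds 1 and that of Zfp689 holds 2 (GATC reads the same on both strands). A GATC was present in 25 of 58 windows of the genes described here (43.1%, with windows for 44 of the 56 genes), in 168 of 405 windows of all Zfp genes (41.5%) and in 41.9% of all 32851 promoter windows of the same length. The share of windows that Dam could mark was thus close to that of all promoters.

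Heights at the Zfp peaks were mostly low and close to those of the rest of the list. The median Dnmt1-Dam height was 8 (interquartile range 7 to 11) at the Zfp peaks and 9 (7 to 11) at the 8129 other peaks. Exactly 25 Zfp peaks (25.8%) stood at 7, the lowest height listed, and positions below it were not analysed here. A height of 9 or more was reached by 48 of 97 Zfp peaks (49.5%, exact 95% interval 39.2 to 59.8), beside 52.9% of all listed peaks. A height of 15 or more was reached by 12 (12.4%, 6.56 to 20.6), beside 8.66% of all listed peaks. Both intervals contain the share of the whole list.

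The mean height depended on 1 peak. It was 12.2 over the 97 Zfp peaks (SD 20.2) and 10.2 over the 96 that remain without the peak assigned to Zfp326 (SD 5.27), against 9.84 at all other peaks (SD 3.90). The median stayed at 8 without it. The Dam-only height was 1 at 76 Zfp peaks (78.4%, 68.8 to 86.1), beside 75.8% of all listed peaks, and its highest value was 6. The log2 ratio of both heights was taken with a pseudocount of 1, after each library was scaled by its sum over all peaks. Its median was 0.20 at Zfp peaks and 0.20 at the others. This scale sets 0 at the ratio of the sums over the list and does not measure enrichment over Dam.

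**Figure D1:**
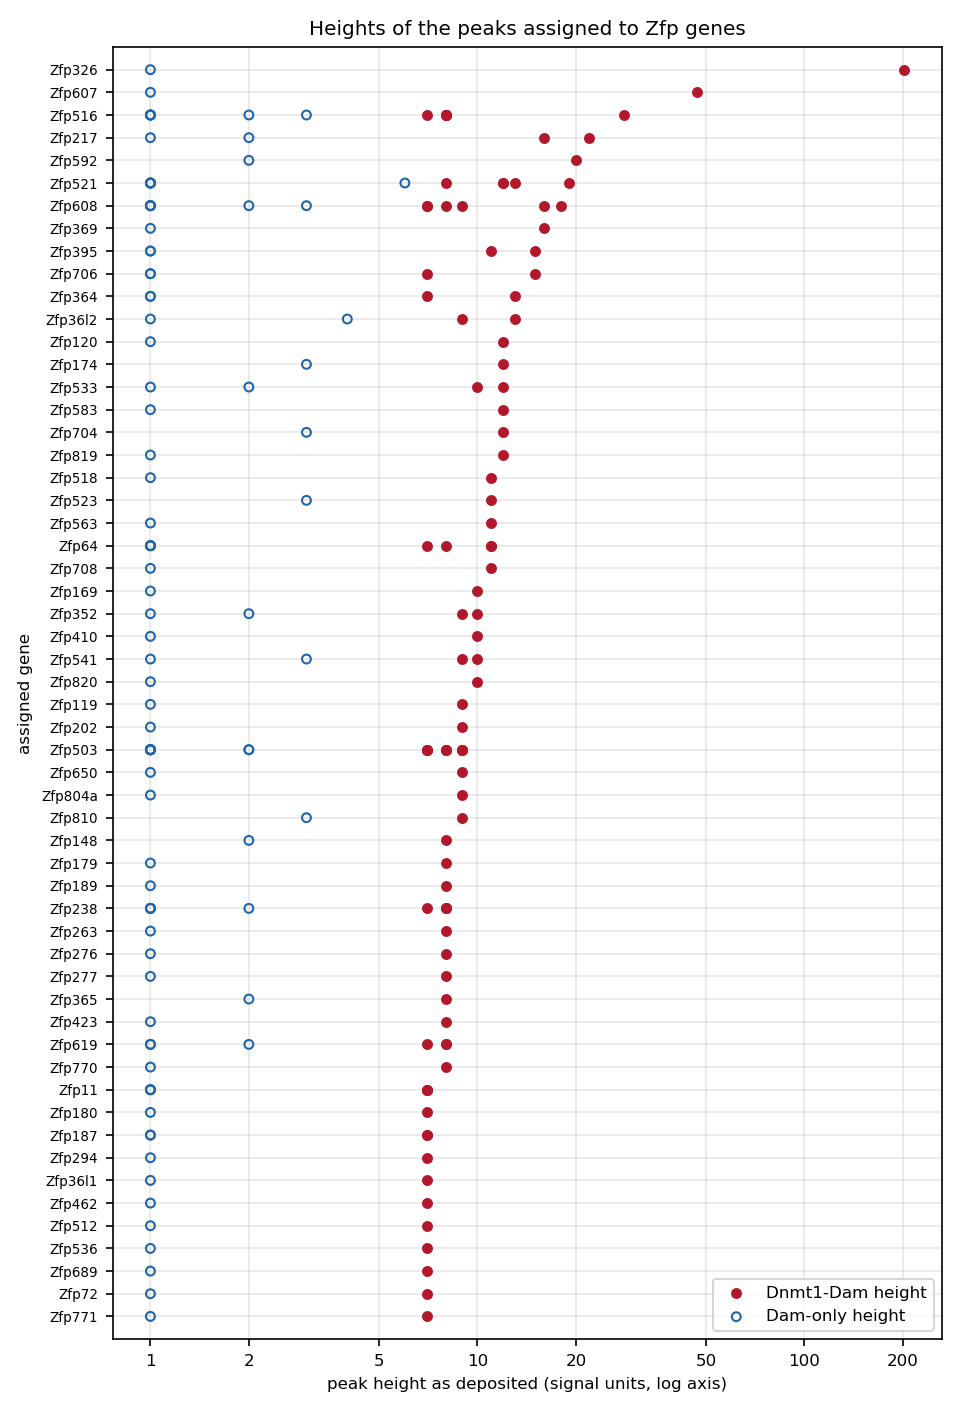
Height of each of the 97 peaks as deposited (horizontal log axis, signal units) for the 56 assigned genes (rows, ordered by their highest peak), with Dnmt1-Dam as filled and Dam-only as open circles. The single peak of Zfp326 stands at 202 and that of Zfp607 at 47, while most filled circles lie between 7 and 12.

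The peak of Zfp326, whose human counterpart links transcript elongation to splicing, was the highest of the whole list. Its height was 202 in the Dnmt1-Dam library, against 1 in the Dam-only library. It lies in a SINE on chromosome 5 at 106479661 (mm9), 135 kb beyond the end of the gene. The next listed peak in either direction is 298 kb away, so no second peak marks the same region. How reads that map to several places were handled is not given, and the part of multiply mapped SINE sequence in this height was not tested.

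Zfp607 held the second highest peak, with 47 in Dnmt1-Dam and 1 in Dam-only, ninth in the whole list. It lies inside the gene at 28649501 of chromosome 7, 3.90 kb from the start site, and no repeat is named there. The gene table lists this gene as Zfp607a beside a gene named Zfp607b, to which no listed peak was matched. Reads shared between these copies could not be told apart here.

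The other 10 peaks of 15 or more belong to 8 genes. Zfp516, a transcription factor of brown fat, had a peak of 28 in Dnmt1-Dam and 3 in Dam-only, 474 kb downstream of its start site. Zfp217, whose human counterpart is an oncogene of breast cancer, had neighbouring peaks of 22 and 16 in Dnmt1-Dam, against 2 and 1 in Dam-only, at 146 kb downstream. Zfp592 had 20 against 2 inside the gene, where a pair of heights written this way is Dnmt1-Dam against Dam-only, here and from here on. Of these 4 peaks, 3 lay far outside the gene.

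Zfp521, a factor of blood, bone and nerve cell development, reached 19 in Dnmt1-Dam and 1 in Dam-only at 413 kb downstream. Zfp608, a close relative of Zfp609, reached 18 and 16 in Dnmt1-Dam, against 3 and 2 in Dam-only. Zfp369 reached 16 against 1, Zfp395 15 against 1 and Zfp706 15 against 1. No peak of this height carried an LTR element, and the only SINEs among them were those of Zfp326 and Zfp217.

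Most Zfp peaks lay between genes. By the classes of the deposited list, 71 of 97 were intergenic (73.2%, 63.2 to 81.7), against 50.5% of the other peaks (49.5 to 51.6). Gene bodies held 23 (23.7%, 15.7 to 33.4), against 42.7% of the other peaks (41.6 to 43.8). These intervals cover counting error only, since close peaks and peaks of 1 gene are not independent. With the highest peak of each gene alone, 34 of 56 were intergenic (60.7%, 46.8 to 73.5), against 46.5% of the highest peaks of the 4537 other named genes (45.1 to 48.0). The 2 intervals then overlap.

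The distance to the assigned gene was compared over peaks and over genes. Beyond 100 kb from the gene lay 37 Zfp peaks (38.1%, 28.5 to 48.6), against 22.9% of the other peaks (22.0 to 23.9). These 37 belong to 14 genes, and 28 of them to the genes with 3 or more peaks. With the highest peak of each gene, 12 of 56 lay so far out (21.4%, 11.6 to 34.4), against 15.9% of the other genes' highest peaks (14.9 to 17.0), a share that the Zfp interval contains. Among peaks already classed as intergenic, 52.1% of Zfp peaks (39.9 to 64.1) and 45.4% of the others (43.9 to 46.9) lay so far out, and these intervals overlap. The Zfp genes with a peak were shorter, with a median length of 22.9 kb (1 transcript per gene) against 42.0 kb for the other genes with a peak. The part of gene length in the class shares was not tested.

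**Figure D2:**
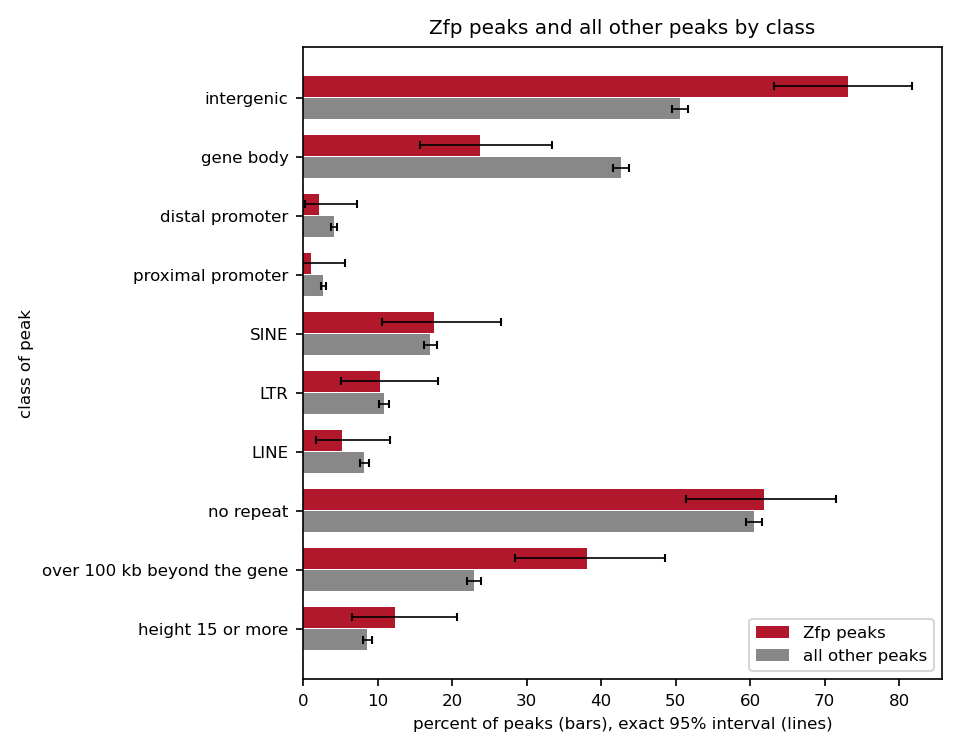
Percent of peaks in each class (horizontal axis) for the 97 Zfp peaks (red) and the 8129 other peaks (grey), with exact 95% intervals as lines. The Zfp bar is longer for intergenic peaks (73.2% against 50.5%) and shorter for gene bodies (23.7% against 42.7%), while the repeat classes overlap.

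Few peaks lay at the promoters of Zfp genes, as in the list as a whole, and each had the lowest listed height. The proximal promoter class held 1 peak, at Zfp11, with 7 in Dnmt1-Dam and 1 in Dam-only at -2.39 kb from its start site (negative distances are upstream). The distal class held 2, at Zfp771 (7 against 1, at -3.06 kb) and Zfp689 (7 against 1, at -3.75 kb). Together they are 3 of 97 peaks (3.09%, 0.642 to 8.77), against 6.78% of the other peaks (6.24 to 7.35), and the Zfp interval contains that share. Within 5 kb of the start site on either side lay 7 Zfp peaks (7.22%, 2.95 to 14.3), against 7.57% of the others (7.0 to 8.16). At this number of peaks the promoter share could not be told apart from that of the other peaks.

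CpG islands touched few members. Zfp11 also had the single peak within an island, 7 against 1, in a LINE inside the gene at 3.97 kb from the start site (chromosome 5, 130171991). Its other peak, 7 against 1, lay in an LTR element 27.0 kb beyond the gene. All 3 peaks of Zfp11 thus stood at the lowest height listed. Island shores carried the peak of Zfp523 (11 against 3) and that of Zfp180 (7 against 1), both inside the gene, and the shelf class held that of Zfp119 (9 against 1). In the whole of the other peaks islands held 0.554% and shores 3.52%.

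Retroelements were named at 32 Zfp peaks (33.0%, 23.8 to 43.3), against 35.0% of the other peaks. SINEs accounted for 17 (17.5%, 10.6 to 26.6), against 17.1%. LTR elements were named at 10 (10.3%, 5.06 to 18.1), against 10.8%, and LINEs at 5 (5.15%, 1.69 to 11.6), against 8.22%. No repeat was named at 60 Zfp peaks (61.9%, 51.4 to 71.5), against 60.5%. Each of these intervals contains the share of the other peaks, so the mix of repeats could not be told apart from that of the list at this number of peaks.

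The 17 SINE peaks belong to 16 genes. Their median Dnmt1-Dam height was 8, and without Zfp326 they ranged from 7 to 22, against a median of 9 and a range of 7 to 54 at the other SINE peaks. Inside Zfp genes, 8 of the 23 body peaks lay in a SINE (34.8%, 16.4 to 57.3), against 18.3% of other gene body peaks (17.0 to 19.6). The 8 are in 8 different genes: Zfp583 (12 against 1), Zfp563 (11 against 1), Zfp410 (10 against 1), which encodes the activator of the chromatin remodeler gene Chd4, Zfp277 (8 against 1), Zfp148 (8 against 2), Zfp521 (8 against 1), Zfp180 (7 against 1) and Zfp294 (7 against 1). The intervals of the 2 shares overlap.

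The median Dnmt1-Dam height of the 10 LTR peaks at Zfp genes was 8.5, against 9 at the 877 other LTR peaks. Over these unlike numbers of peaks, the maximum was 60 at other genes and 13 at Zfp genes. The highest at Zfp genes lay inside Zfp364, with 13 against 1 at 96551161 of chromosome 3 and 7 against 1 at 110 bp from it. Next were Zfp533 and Zfp169, each at 10 against 1. The remaining LTR peaks, at Zfp650, Zfp119, Zfp365, Zfp423, Zfp11 and Zfp619, were between 7 and 9. The LINE peaks were those of Zfp706 (15 against 1), Zfp179 (8 against 1) and, at 7 against 1 each, Zfp187, Zfp11 and Zfp512.

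Peaks were spread unevenly over the genes, as in the rest of the list. Among the 56 genes, 39 had 1 peak (69.6%, 55.9 to 81.2, against 63.3% of the other named genes), 9 had 2 and 8 had 3 or more. The last are 14.3% of Zfp genes (6.38 to 26.2), against 15.9% of the other named genes (14.8 to 17.0). Those 8 genes held 40 of the 97 peaks, and 37 of the 40 were intergenic (92.5%, 79.6 to 98.4). Their median Dnmt1-Dam height was 8 and the highest was 28. Of the 57 peaks at genes with 1 or 2, 34 were intergenic (59.6%, 45.8 to 72.4).

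Zfp503, a transcription repressor of the developing striatum and limb, had the most peaks. All 9 lay upstream, spread from -247 to -895 kb of its 5.64 kb gene on chromosome 14. Their Dnmt1-Dam heights ranged from 7 to 9, against 1 or 2 in the Dam-only library. No peak fell inside the gene, and all 9 were classed as intergenic.

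Chromosome 18 held 3 such genes. Zfp516 had 6 peaks, with Dnmt1-Dam heights of 7, 8, 8, 8, 28 and 8 in order along the chromosome, against Dam-only heights of 1, 1, 1, 2, 3 and 1. Zfp608 also had 6, with 16, 7, 18, 7, 9 and 8, against 2, 1, 3, 1, 1 and 1, from 257 kb downstream of its start site to -486 kb. Zfp521 had 5, with 13, 19, 12, 8 and 12, against 6, 1, 1, 1 and 1. Only 1 of these 17 peaks was inside a gene, that of Zfp521 at 8 against 1.

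Zfp64 had 4 peaks of 11, 7, 11 and 8 in Dnmt1-Dam, against 1 each in Dam-only, with 3 of them between -324 and -336 kb. Zfp238 had 4 of 7, 8, 8 and 8, against 1, 2, 1 and 1, between -72.5 and 86.1 kb. Zfp619 had 3 of 8, 7 and 8, against 1, 1 and 2, all downstream of its start site. Unlike the chromosome 18 genes, none of these had a peak above 11.

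**Figure D3:**
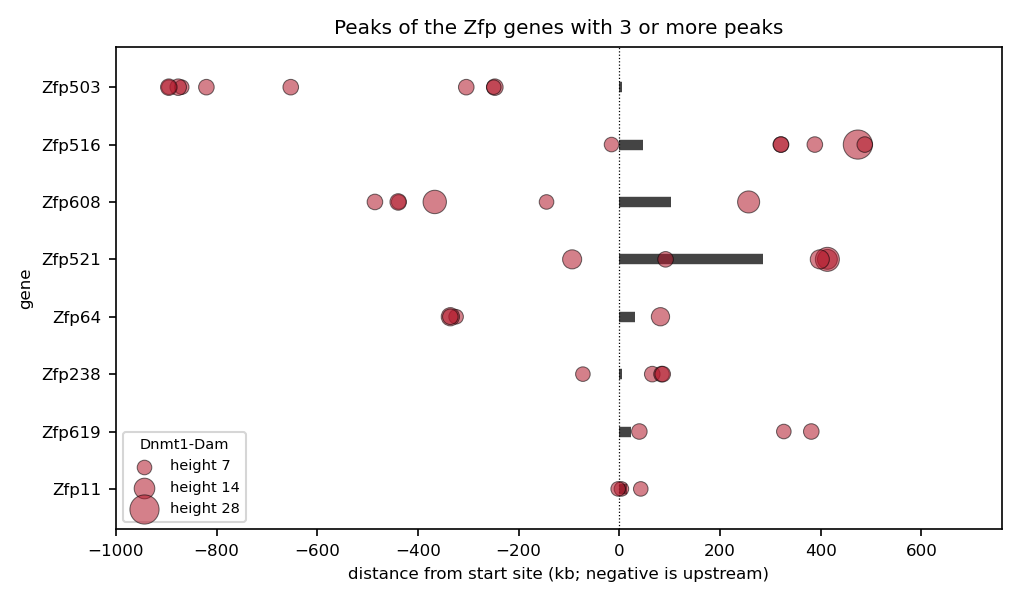
Distance of each peak from the start site of its assigned transcript (horizontal axis, kb, negative is upstream) for the 8 Zfp genes with 3 or more peaks, with circle area in proportion to Dnmt1-Dam height and a dark bar for the length of the gene over its transcripts. Of the 40 circles 37 are intergenic, and the 9 of Zfp503 lie between -247 and -895 kb.

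Close pairs accounted for some of these counts. Within 200 bp of the peak before it lay 7 of 97 Zfp peaks (7.22%, 2.95 to 14.3), against 5.43% of the other peaks. The pairs were at Zfp64 (80 bp apart), Zfp503, Zfp516 and Zfp217 (90 bp each), Zfp187 and Zfp364 (110 bp each) and Zfp521 (120 bp). Heights within a pair were equal at Zfp516 (8 and 8) and Zfp187 (7 and 7). At Zfp521 the pair had 13 and 19 in Dnmt1-Dam, against 6 and 1 in Dam-only. The highest Dam-only height of the set thus lay 120 bp from a height of 1, the value at most Zfp peaks.

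Dam-only signal was highest beside that Zfp521 peak (13 against 6, on chromosome 18 at 13589671). Zfp36l2, a CCCH factor that promotes mRNA decay, had a peak of 13 against 4 at -118 kb. A Dam-only height of 3 was found at single peaks of Zfp174, Zfp523, Zfp608, Zfp516, Zfp704, Zfp541 and Zfp810. The 9 peaks with a Dam-only height of 3 or more (9.28%, 4.33 to 16.9, against 11.7% of the other peaks) had Dnmt1-Dam heights from 9 to 28.

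By chromosome and by the deposited names, Zfp peaks were found on 18 chromosomes and were most frequent on chromosome 18. It held 17 of the 97 (17.5%, 10.6 to 26.6), from 3 genes, against 3.35% of the other peaks. Chromosome 7 followed with 13 peaks in 10 genes (13.4%, 7.33 to 21.8, against 5.58%), chromosome 2 with 12 in 7 genes (12.4%, 6.56 to 20.6, against 7.75%) and chromosome 14 with 11 in 2 genes (11.3%, 5.80 to 19.4, against 4.17%). On chromosome 7 the peaks were spread over many genes, on chromosomes 14 and 18 they came from few. Counted by the current symbols of the gene table, the Zfp genes of chromosome 7 held 17 peaks as well. Zfp genes are themselves unevenly spread. In the gene table, 11 of 93 Zfp genes on chromosome 7 had a peak under any name (11.8%, 6.05 to 20.2), beside 22.7% of all genes. The counts were 8 of 27 on chromosome 2, 3 of 5 on chromosome 14 and 3 of 11 on chromosome 18. Chromosome 6 and the X chromosome held 0 of the 97 Zfp peaks each (exact 95% interval 0 to 3.73%).

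Groups of Zfp genes with a peak were counted along the chromosomes, and no expected number of groups was computed. With start sites no more than 1 Mb apart, no group of 3 or more was found, and 2 pairs were. On chromosome 16, Zfp263 (8 against 1, 1.15 kb beyond the gene) and Zfp174, a SCAN domain factor (12 against 3, inside the gene), start 103 kb apart. On chromosome 7, Zfp771 and Zfp689, with the distal promoter peaks given above, start 205 kb apart.

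Zfp genes themselves do form groups, and the gene table was used to see which of them neighbour each other. It holds 394 curated protein-coding Zfp genes, of which 212 have another Zfp gene as the next such gene on either side. A listed peak was assigned to 60 of the 394 under any name (15.2%, 11.8 to 19.2), beside 22.7% of all 21031 curated genes. Among Zfp genes next to another, 17 of 212 had a peak (8.02%, 4.74 to 12.5), and among those standing apart 43 of 182 did (23.6%, 17.7 to 30.5). The interval of the neighbouring genes thus lay below the 22.7% of all genes, and that of the genes standing apart contained it. These counts are of the presence of a peak, which chose the genes described here, and were not tested.

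The difference was not confined to 1 chromosome. On chromosome 7, which has 93 Zfp genes, 6 of 70 neighbouring genes had a peak (8.57%, 3.21 to 17.7) and 5 of 23 standing apart did (21.7%, 7.46 to 43.7). On the other chromosomes these counts were 11 of 142 (7.75%) and 38 of 159 (23.9%). Of 15 chromosomes with both kinds, the share was lower for neighbouring genes on 11, higher on 1 and equal on 3. The 3 are chromosomes 6, 11 and X, where no Zfp gene had a peak. Several chromosomes have few genes of 1 kind, such as chromosome 10 with 2 neighbouring Zfp genes. These counts too are of the presence of a peak and were not tested. Chromosome 17 had a peak at 5 of its 46 Zfp genes and chromosome 13 at 4 of 36, while chromosomes 6 and 11, with 17 and 21 Zfp genes, had a peak at 0 under their current names.

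Peaks inside the body gave a like order. They were found in 8 of 212 neighbouring genes (3.77%, 1.64 to 7.30) and 17 of 182 standing apart (9.34%, 5.54 to 14.5), beside 11.7% of all genes, and these 2 intervals overlap. A gene missing from the submitters' annotation could not receive a peak. Among genes with a Zfp number under 900 the shares were 9.36% (16 of 171) and 25.6% (41 of 160), while 3 of the 63 with a number of 900 or more had a peak. Gene spacing and reads that map to several copies differ between clustered and lone genes, and their part in these shares was not tested.

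**Figure D4:**
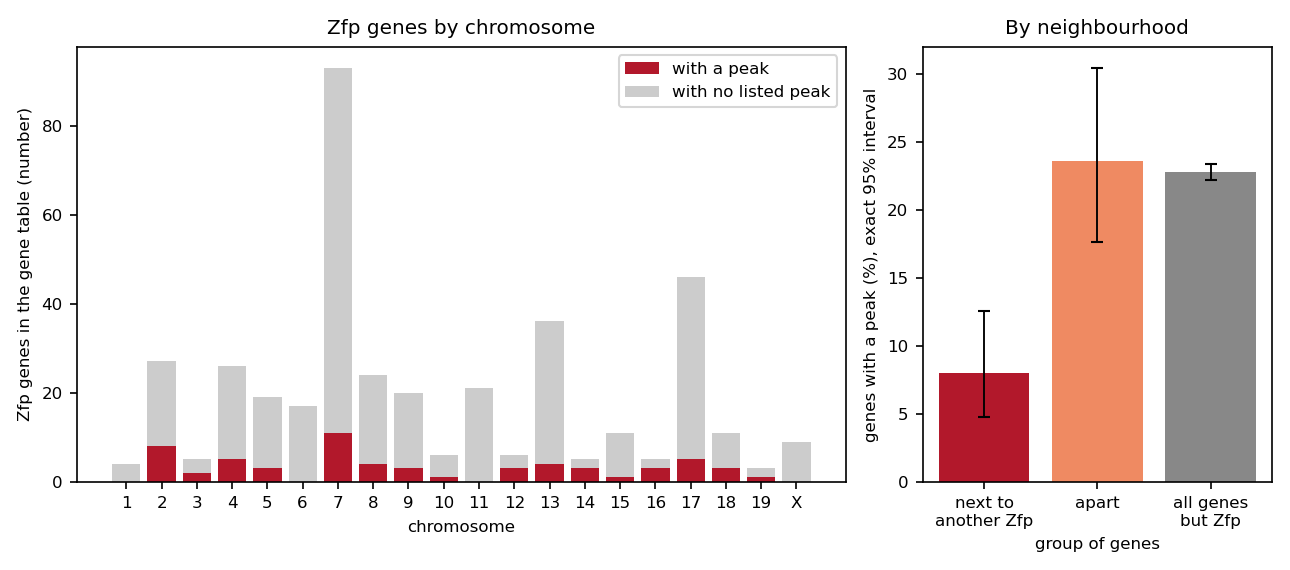
Left, number of Zfp genes in the gene table by chromosome (vertical axis), with a listed peak in red and without one in grey; right, percent of genes with a listed peak for Zfp genes next to another Zfp gene, Zfp genes standing apart and all other genes, with exact 95% intervals. Chromosome 7 has 93 Zfp genes of which 11 have a peak, and the 3 bars at right stand at 8.02%, 23.6% and 22.8%.

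The neighbouring genes with a peak included KRAB genes known from retroelement control. Of 12 such genes found in the table, from a list of 13 on silencing and imprinting, 2 had a peak (16.7%, 2.09 to 48.4). The interval contains the 22.7% of all genes. Zfp819, which represses retroelements in mouse embryonic stem cells, had 12 against 1 at -18.1 kb, on chromosome 7 at 50844471. Zfp708 had 11 against 1, 10.2 kb beyond the gene, on chromosome 13 at 67160121. Neither peak lay in a repeat or inside the gene. No listed peak was matched to Zfp57 and Zfp445, which maintain imprints, or to Zfp809, which silences proviruses.

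Developmental and general factors had a higher share, with an interval that overlaps that of the KRAB genes. Of 31 such genes found in the table, 18 had a peak (58.1%, 39.1 to 75.5), beside 22.7% of all genes. A peak inside the body was found in 5 of the 31 (16.1%, 5.45 to 33.7), beside 11.7% of all genes, a share that lies within the interval. This list was drawn up with earlier results of these data known, so its share supports nothing by itself. Beyond the genes with many peaks above, Zfp423, a factor of fat cell commitment, had 8 against 1 in an LTR element at -65.4 kb. Zfp462, a heterochromatin factor of pluripotent cells, had 7 against 1 at -82.4 kb, and Zfp804a, whose human counterpart is linked to schizophrenia, had 9 against 1 at -470 kb. Zfp536, a repressor of neuronal differentiation, had 7 against 1 inside the gene. Zfp704 had 12 against 3 at 300 kb downstream, and Zfp365 had 8 against 2 in an LTR element.

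The list also took in genes named otherwise in the deposited file. Zfp507, unnamed there, had 4 peaks by its accession, the highest of 18 against 1 at -320 kb, and Zfp827 had 9 against 1 inside the gene. The gene listed as Zfp533, now Zfp385b, had intergenic peaks of 12 against 2 at -26.2 kb and 10 against 1 at -22.1 kb. It had 1 more peak with no name in the file, 13 against 4, inside the body. Peaks of this gene are therefore split between a named and an unnamed accession.

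Of the 4 CCCH genes, 2 had a peak (50.0%, 6.76 to 93.2), beside 22.7% of all genes. Zfp36l1 had 7 against 1 at 279 kb downstream and Zfp36l2 had 13 against 4 and 9 against 1, all 3 intergenic. Of 6 zinc finger genes of the cleavage-stage embryo found in the table, 1 had a peak (16.7%, 0.421 to 64.1), again beside 22.7%. Both intervals are wide and contain the share of all genes. The 1 gene was Zfp352, which is expressed at the 2-cell stage, with 10 against 2 at 508 kb and 9 against 1 at 83.5 kb downstream. Of 20 genes of the KRAB corepressor and heterochromatin machinery, 6 had a peak (30.0%, 11.9 to 54.3), beside 22.7% of all genes. Dnmt1 and Resf1 had theirs inside the gene, at 16 against 1 and 15 against 1. Setdb1 and Hdac2 (10 against 1 each) and Smarcad1 (8 against 1) had an intergenic peak, and Atf7ip (8 against 1) had one in the distal promoter, while no listed peak was matched to Trim28.

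Zinc finger families with their own names gave a further comparison. The list held 97 peaks in 56 Zfp genes and 18 peaks in 8 genes named Zbtb, Zscan or Zkscan, with Zbtb18 and Zscan26 counted among the Zfp genes under their older names. By the current symbols of the gene table, a peak was assigned to 15.2% of Zfp genes (11.8 to 19.2) and to 11 of 68 Zbtb, Zscan and Zkscan genes (16.2%, 8.36 to 27.1). By the names of the deposited list, the highest Dnmt1-Dam height was 202 at the 97 Zfp peaks, or 47 without Zfp326. It was 13 at the 18 peaks of these families. The Dam-only height reached 6 at the 97 peaks and 1 at the 18. These maxima are over unlike numbers of peaks, and a Zbtb18 peak listed as Zfp238 had a Dam-only height of 2. Intergenic shares were 73.2% for the 97 peaks and 55.6% for the 18 (30.8 to 78.5), with overlapping intervals.

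The remaining members had a single low or moderate peak, apart from Zfp541, a gene of meiosis, with 10 against 3 inside the gene and 9 against 1 outside. Inside their genes lay those of Zfp189 and Zfp276 (8 against 1 each) and of Zfp202 (9 against 1) and Zfp810 (9 against 3). Outside lay those of Zfp120 (12 against 1), Zfp518 (11 against 1), Zfp820 (10 against 1), Zfp770 (8 against 1) and Zfp72 (7 against 1).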

How the data were processed

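The submitters' processing notes name CASAVA, BWA and build mm9. The peak caller, its thresholds and what was done with duplicate or multiply mapped reads are not stated in the labels or the file. The table deposited by the authors gives, per peak, 1 position and a whole-number signal height in the Dnmt1-Dam and the Dam-only library. No header or label says whether the authors scaled these heights, and they were not taken as read numbers. Location, CpG island and repeat classes and gene names are the authors'. Per the labels, libraries had 15 PCR cycles and fragments around 300 bp.

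Peaks whose gene name is Zfp and a digit were taken, and a peak with several repeat classes entered each of them. Start sites and lengths are those of the deposited table. Neighbouring genes and current names came from RefSeq tables of GRCm38.p6 by accession, then gene ID and, where neither was found, gene symbol. Shares have exact Clopper-Pearson intervals at 95%, which cover counting error only. With 1 library per group no p-value was computed. Scripts used Python 3.11.15 and SciPy 1.17.1. The interval function was tested on simulated counts and the log2 ratio on a small made-up example, and the other steps had no such test. Named were the genes of the 10 highest peaks, those with 3 or more peaks, with promoter, island or shore peaks or with the highest Dam-only heights, members of positional groups, and listed genes with a peak. Other members are named for completeness, after their values were seen. Members, lists and rules were chosen with earlier results of these data known. Alternatives were height minimums of 9 and 15, 1 peak per 1 kb run, other naming, pseudocounts and gaps.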

Additional observations from a re-analysis of the deposited data

How the results depend on the processing

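Of 114 recalculated values for 21 results, 95 stayed within the main interval, spread or 1.5 times the main count, and 19 moved beyond it. The 97 peaks and 56 genes became 48 and 34 at a height of 9 or more, 12 and 10 at 15 or more, and 30 and 27 when limited to the body and 10 kb around it, by construction. With the highest peak of each gene, chosen after the data were seen, 60.7% of peaks were intergenic and 35.7% in gene bodies. At 15 or more, 0% were in LTR elements and 75% had no repeat, over 12 peaks. The unscaled median log2 ratio was 2.17, against 0.20 after scaling. Pairs or larger groups of genes with a peak numbered 4 with a gap of 2 Mb, 9 with 5 Mb and 0 at height 9 or more, against 2. The share of Zfp genes with a peak was 9.90% at height 9 or more and 6.35% inside the body, against 15.2%. For genes next to another Zfp gene it was 3.77% inside the body, and for those standing apart 15.4% at height 9 or more and 9.34% inside the body. All alternative settings for neighbouring and standing-apart genes, also those by Zfp number and chromosome, were not planned beforehand. No paired analysis was possible because each group is 1 library, and no replicate could be left out for the same reason. The depth is unknown, and low heights limit what can be told apart.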
